A study of Homo sapiens with 12 samples.

Results

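The changes described here are those seen with doxycycline (Dox) in both MeWo and SkMel28, a pair of human cutaneous melanoma cell lines in which Dox drives a knock-down of MITF. All 12616 measured genes entered the comparison, out of 12683 features in all, and the other 67 features were spike-in RNAs. A gene was taken into the core response when its average change over the lines passed the test and when, within each line, all 3 Dox libraries lay on the same side of all 3 control libraries. This held for 1007 genes, 7.98% of those tested.

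MeWo and SkMel28 cells were kept with 0 or 1 µg/ml Dox for 8 days, and 3 libraries were made per line and dose, giving 6 control and 6 Dox libraries. The control groups carried the inducible system as well and received medium without Dox. Per the labels MeWo was grown in EMEM and SkMel28 in RPMI, both with FBS, so that line and medium cannot be told apart if the labels hold. No library came from cells that received Dox without the knock-down system, and effects of the drug and of the knock-down cannot be told apart. Whether either line was a single clone, and whether replicates were separate cultures, is not given in the sources used here, so p-values measure only the spread between these libraries, which may be technical.

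MITF is the transcription factor that sets up the melanocyte lineage. It switches on genes for pigment synthesis and for the melanosome, the lysosome-related organelle in which pigment is made, and in melanoma it is also known to act on the cell cycle, metabolism and survival. Melanocytes arise from the neural crest, the embryonic population that also yields the Schwann cells of peripheral nerve, and melanoma cells with little MITF are known to take on features of those earlier or glial states.

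RNA was measured by sequencing from the 3′ ends of polyadenylated transcripts, with 2568187 to 3714608 reads per library. Values are reads scaled to library size (CPM) and normalised between libraries, and a change is the difference in log2(value + 1) between Dox and control, averaged over the lines and given with its standard error (SE). One read was worth 0.278 to 0.389, and a group with at most 3 reads in each library was treated as being at the floor, a value of 1.17. MeWo Dox replicate 1 stood apart, with a chi-square per degree of freedom of 15.2 to 17.4 against the other MeWo Dox libraries, compared with 4.47 between those. Of the markers of the melanocyte lineage 10 of 10 were listed, with summed values of 11700 to 13300 in the control libraries and 6790 to 8470 in the Dox libraries. Among markers of other cell types, 2 of 6 for keratinocytes, 2 of 6 for fibroblasts, 1 of 6 for immune cells and 0 of 4 for endothelium were listed. The fibroblast sum was 10.9 to 47.8 in control and 6.04 to 19.2 in Dox libraries, and the immune sum, which is CD68 alone, was 78.2 to 151 and 18.7 to 147. PTPRC and COL1A1 were not among the listed genes, and the part of RNA from other cell types in the changes below was not tested.

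The target itself was read first. MITF (chromosome 3, 69739456 to 69968336 on the plus strand, hg38) had values of 657, 663 and 708 in MeWo control and 451, 354 and 371 in MeWo Dox. In SkMel28 it had 861, 739 and 792 without Dox and 575, 578 and 552 with Dox. Every Dox library lay below every control library of its line, and the average change was -0.64 (SE 0.09, adjusted p = 0.000153). The fall was -0.79 in MeWo and -0.49 in SkMel28, and the interval of the difference between the lines ran from -0.63 to 0.02.

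Over all genes, 1634 changed with Dox on average, 13.0% of those tested, with 858 higher (6.80%) and 776 lower (6.15%). The core response held 61.6% of them, split into 502 rises (3.98%) and 505 falls (4.0%). Without MeWo Dox replicate 1 the core held 1108 genes, of which 954 were shared. The balance between directions depended on the scaling: 52.5% of the called genes were higher after the normalization used by the authors, and 67.2% when libraries were scaled to the spike-in RNAs instead, which shifted the median of all genes from 0.0043 to 0.079 and left 235 core falls. Values below are from the authors' normalization, and named falls that were no longer called under spike-in scaling are marked as such.

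Of the called genes outside the core, 606 had fitted changes of the same sign in both lines, but libraries overlapped in at least 1 of them, in MeWo only for 296 genes and in SkMel28 only for 302. In 21 the lines moved in opposite directions. Of the 1007 core genes, 460 were called in each line taken alone, 443 in 1 line alone and 104 in neither, so that the last were called only on average over the 12 libraries.

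**Figure D1:**
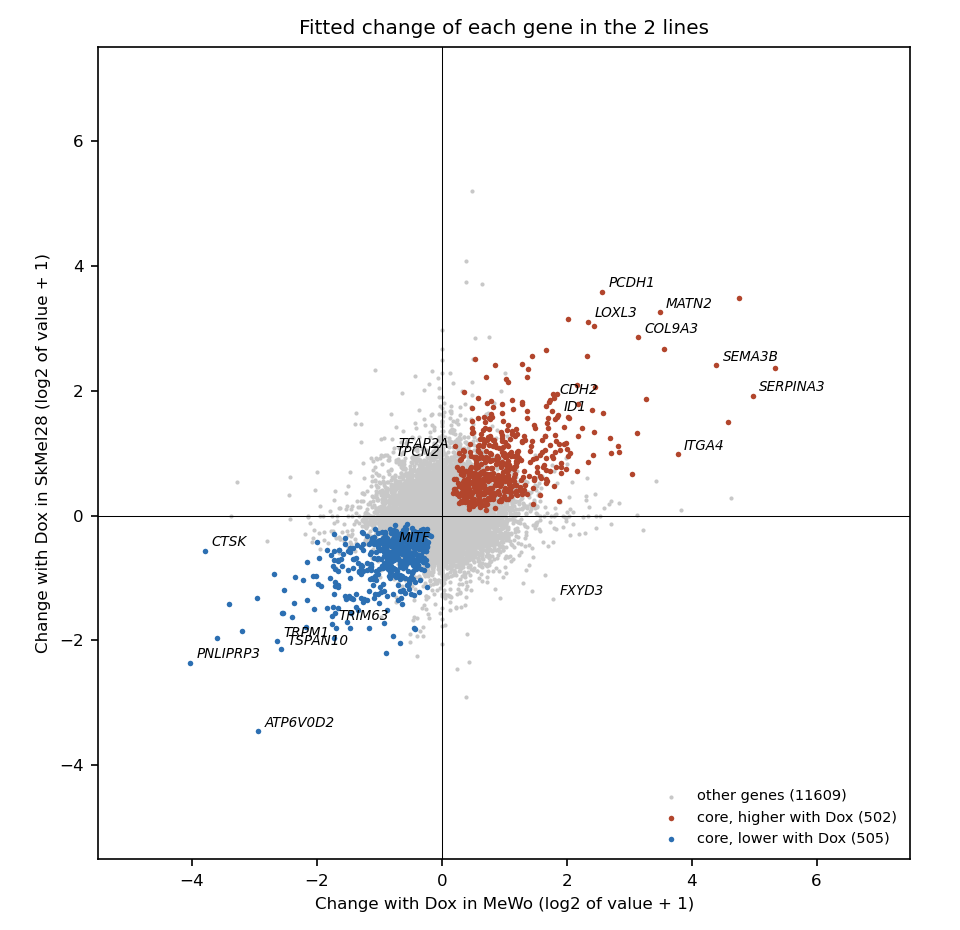
Each point is 1 of the 12616 genes, placed by its fitted change with Dox in MeWo (horizontal) and in SkMel28 (vertical), both as differences in log2(value + 1) of 3 Dox and 3 control libraries. Core rises (502) lie in the upper right quadrant and core falls (505) in the lower left, where their definition puts them, with MATN2 and ATP6V0D2 among the genes far from the centre.

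The median core rise was 0.80 and the median core fall -0.69, against 0.0043 over all genes. Of the core, 215 genes changed by less than 0.5, 501 by 0.5 to 1, 258 by 1 to 2 and 33 by 2 or more. The 33 largest changes comprised 21 rises and 12 falls. In both lines 94 genes rose and 58 fell by at least 1. The changes tended to be larger in MeWo, for 306 of 502 rises and 319 of 505 falls, with median rises of 0.84 in MeWo and 0.70 in SkMel28 and median falls of -0.73 and -0.61. The larger of the log2 changes in the lines was 1.53 times the smaller at the median, under 1.5 times in 484 core genes and over 3 times in 75. A difference between the lines (interaction) passed the test in 102 core genes, where 7.09% of all genes passed it.

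In terms of the RNA pool, core falls carried more signal than core rises in the control groups and a similar share with Dox. The summed share of the falls went from 9.52% to 5.64% with Dox in MeWo and, in SkMel28, from 11.8% to 7.4%, while the core rises went from 3.37% to 5.68% and from 4.16% to 7.12%. The summed value of the falls was 89930 to 93530 in MeWo control and 54410 to 57410 in MeWo Dox libraries, and 98990 to 110100 and 62300 to 66350 in SkMel28. These sums describe the sets, whose direction was fixed when they were chosen.

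Genes known from glia, matrix and the cell surface led the rises. Among the core rises with the largest moderated t were COL9A3, PLAT, SLC26A2, MATN2, LOXL3, MAP2, EPHB3, GAS7 and GPR155, all of them with means of at least 10 in the Dox group of each line. The plot of genes with large t shows them by library. A difference between the lines adds to the spread in this fit and lowers t. Near-equal changes in the lines are therefore favoured by the ranking, here and among the falls ranked by t below.

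COL9A3, which encodes a chain of the fibril-associated type IX collagen (chromosome 20, 62816244 to 62841159, plus strand), had values of 27.4, 24.9 and 24.3 in MeWo control and 214, 229 and 259 in MeWo Dox. In SkMel28 the values were 124, 87.6 and 133 without and 803, 781 and 898 with Dox. The lines rose from different starting levels, and the average change was 3.0 (SE 0.11, adjusted p = 6.66e-11), with a difference between the lines of 0.29 (interval -0.14 to 0.71).

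PLAT, the tissue plasminogen activator, rose from 24.2, 23.3 and 22.0 to 166, 112 and 123 with Dox in MeWo and, in SkMel28, from 92.4, 84.1 and 72.8 to 337, 338 and 363. SLC26A2, a sulphate transporter needed for sulphated matrix glycans, rose from 56.7, 65.7 and 66.4 to 243, 284 and 349 and from 117, 131 and 131 to 457, 433 and 428. These genes changed by 2.25 (SE 0.12) and 1.99 (SE 0.11), with adjusted p of 7.04e-09 and 8.45e-09. MATN2, a matrilin that links matrix filaments, changed by 3.37 (SE 0.2), from means of 4.49 to 59.5 in MeWo and 1.27 to 19.9 in SkMel28. LOXL3, of the lysyl oxidases that cross-link collagen, changed by 2.73, with means of 2.11 and 15 in MeWo and 41.3 and 358 in SkMel28.

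The neuronal microtubule protein MAP2 rose almost equally, by 1.72 in MeWo and 1.82 in SkMel28. GPR155, a lysosomal membrane protein that senses cholesterol, rose by 1.74 and 1.84, and GAS7, which shapes membrane and actin in neurites, by 1.66 and 1.28. The Eph receptor kinase EPHB3 was at the floor in MeWo control, at 0.288, 0 and 0.648, and reached 12.1, 15.2 and 15.6 with Dox, at least 12.3-fold higher, while in SkMel28 its mean went from 1.75 to 16.4.

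**Figure D2:**
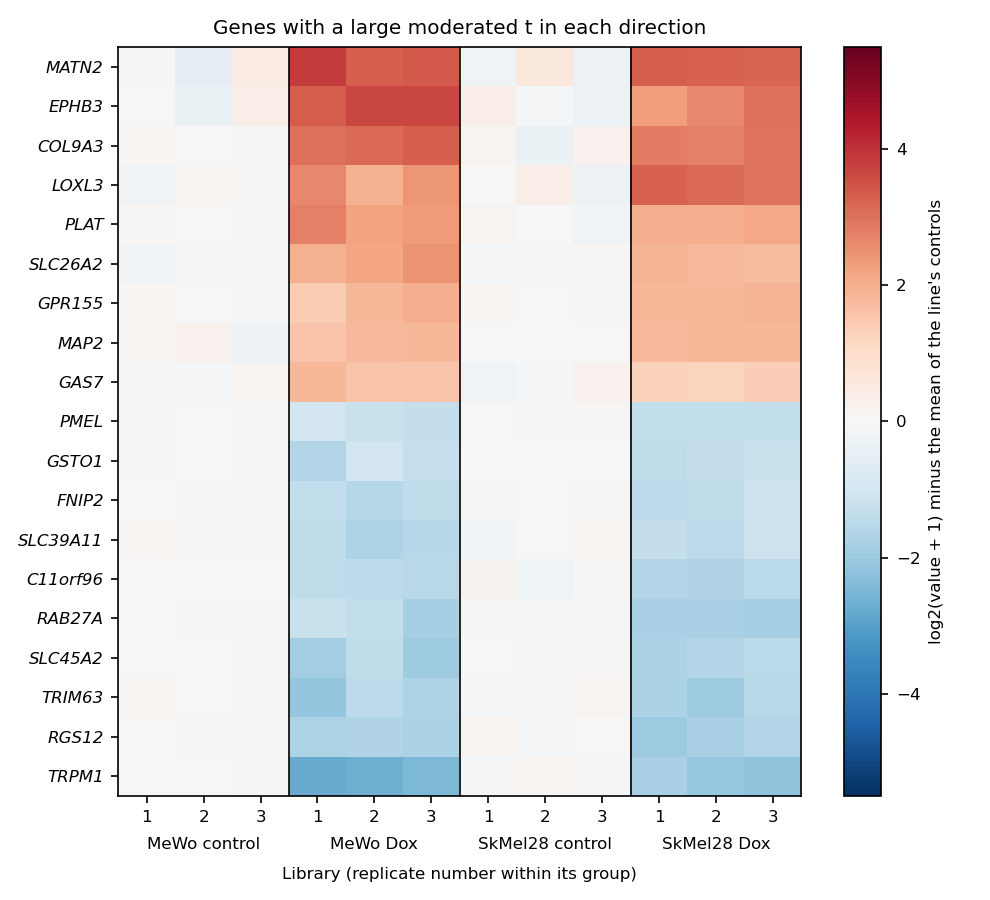
Rows are 9 core rises and 10 core falls from among those with the largest moderated t, and columns are the 12 libraries by group. Colour gives log2(value + 1) minus the mean of the 3 control libraries of the same line, so that all Dox cells are red for the rises, up to 3.84 for MATN2, and blue for the falls, down to -2.76 for TRPM1.

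Among falls, the largest moderated t belonged to TRPM1, RGS12, SLC45A2, C11orf96, PMEL, TRIM63, RAB27A, SLC39A11, GSTO1 and FNIP2. Genes of the melanosome stood beside genes known from other processes. TRPM1, the ion channel melastatin (chromosome 15, 31001065 to 31161160, minus strand), fell from 94.2, 94.8 and 101 to 13.4, 14.4 and 16.6 with Dox in MeWo and, in SkMel28, from 51.8, 57.8 and 51.7 to 15.1, 12 and 10.9. Its change was -2.32 (SE 0.14, adjusted p = 1.89e-08).

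TRIM63 encodes the ubiquitin ligase MuRF1, best known from the breakdown of muscle protein (chromosome 1, 26051301 to 26068436, minus strand). Its values were 701, 672 and 610 in MeWo control, 150, 242 and 205 in MeWo Dox, 354, 346 and 412 in SkMel28 control and 109, 95.3 and 128 in SkMel28 Dox. The lines fell by nearly the same amount, -1.75 and -1.74, and the interval of the difference was -0.47 to 0.44. RGS12, which shortens G protein signalling, fell from 88.7, 94.4 and 85.8 to 26.8, 28.0 and 26.4 with Dox in MeWo and, in SkMel28, from 107, 93.6 and 96.9 to 24.0, 27.7 and 31.4, and groups were far apart in both lines. GSTO1, a glutathione transferase, fell from a mean of 957 to 394 and from 1060 to 427, with changes of -1.30 and -1.31.

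The zinc transporter SLC39A11 fell by 1.42 on the log2 scale and FNIP2, a partner of folliculin in lysosomal nutrient signalling, by 1.38, while C11orf96, a gene of little known function, fell by 1.51. Larger falls were seen in ATP6V0D2 (-3.19), the lipase-related gene PNLIPRP3 (-3.19), TSPAN10 (-2.35), the noncoding RNA LINC00520 (-2.06) and the cystatin gene CST1 (-2.02). PRDM7 fell by 2.52, but it has a near-identical paralog, PRDM9, and how reads shared between them were counted is not given in the sources used here. ATP6V0D2 reached the floor with Dox in MeWo, at 0, 1.14 and 0.339 after 11.8, 10.1 and 8.1, at least 8.58-fold lower.

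Several of these genes overlap another listed gene: PMEL overlaps CDK2, RAB27A overlaps PIGB and PIGBOS1, MATN2 overlaps RPL30, COL9A3 overlaps TCFL5, LOXL3 overlaps HTRA2 and DOK1, TSPAN10 overlaps NPLOC4 and SLC26A2 overlaps TIGD6. Since the strand used for counting is not given in the sources used here, reads of such pairs cannot be assigned with certainty. CDK2, a kinase of the G1 to S transition, changed by -1.38 (SE 0.14), and PMEL by -1.27 (SE 0.083).

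MITF and its relatives bind the M-box, an E-box preceded by T. Promoter windows of 300 bases (250 before and 50 after each start, RefSeq on GRCh38.p14) were searched on both strands for TCATGTG and TCACGTG, neither of which contains the other. At least 1 window was held for 10047 of the 12616 genes. TCATGTG was present in 2.61% of these genes, in 4.13% of core rises, in 5.94% of core falls and in 9.59% (7 of 73) of the 100 core falls with the largest t that had a mean of at least 10 in each line. TCACGTG was present in 7.58% of all genes, 4.85% of core rises, 7.67% of core falls and 5.48% (4 of 73) of the same strongest falls. A match is a description of letters, not of binding.

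The stretches that hold TCATGTG or its reverse complement in 7 of the strongest core falls are shown to let the flanks be compared. Each runs 40 bases to either side of the first match, 5′ to 3′ on the strand of the gene, with matches in capitals.
TRIM63, chr1:26067635-26067721, minus strand: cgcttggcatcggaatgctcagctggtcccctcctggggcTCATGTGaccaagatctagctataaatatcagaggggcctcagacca
FNIP2, chr4:158805657-158805743, plus strand: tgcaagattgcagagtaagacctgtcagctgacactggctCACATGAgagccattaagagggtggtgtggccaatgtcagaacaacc
MME, chr3:155079489-155079575, plus strand: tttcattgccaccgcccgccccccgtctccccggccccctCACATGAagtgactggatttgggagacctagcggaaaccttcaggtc
TSPAN10, chr17:81642185-81642271, plus strand: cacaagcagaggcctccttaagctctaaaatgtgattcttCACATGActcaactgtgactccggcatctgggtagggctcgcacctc
CEACAM1, chr19:42528476-42528562, minus strand: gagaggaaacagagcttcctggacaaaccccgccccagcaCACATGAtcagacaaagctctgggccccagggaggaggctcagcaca
B4GALT5, chr20:49713834-49713920, minus strand: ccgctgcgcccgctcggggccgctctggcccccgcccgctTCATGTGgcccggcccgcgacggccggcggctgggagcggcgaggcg
GPR143, chrX:9765862-9765948, minus strand: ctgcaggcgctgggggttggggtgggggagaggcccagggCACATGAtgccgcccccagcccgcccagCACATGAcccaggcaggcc
The matches began 51 bases before the start in TRIM63, 142 in FNIP2, 143 in MME, 80 in TSPAN10, 41 in CEACAM1, 2 in B4GALT5 and 61 in GPR143, which held 2. TSPAN10 and GPR143 are melanosome genes, MME encodes the membrane metallopeptidase neprilysin, CEACAM1 an adhesion molecule and B4GALT5 a galactosyltransferase of lactosylceramide synthesis. MME fell by 1.43 (SE 0.11), CEACAM1 by 1.39 (SE 0.17), B4GALT5 by 0.69 (SE 0.084) and GPR143 by 0.74 (SE 0.1) on the log2 scale.

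The genes were then grouped into 53 functional classes, each described by how many listed members were called. Over all genes 6.80% were called higher and 6.15% lower, which is the background for counts under the authors' normalization with all 12 libraries. Under spike-in scaling 799 of 12616 genes were called higher and 390 lower. Class counts given under that scaling are to be read against these smaller numbers. Among classes with shares far above 6.80% on the higher side were neural crest and glial genes, integrins, matrix, receptor tyrosine kinases and cadherins. S100 proteins (3 of 8) and serpins, metalloproteases and their inhibitors (10 of 28) came close to these. On the lower side were V-ATPase subunits, pigment and melanosome genes, TCA cycle and pyruvate entry (8 of 34) and mitosis (19 of 83). Tetraspanins (4 of 19) and glycolysis (5 of 24) came close to mitosis.

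**Figure D3:**
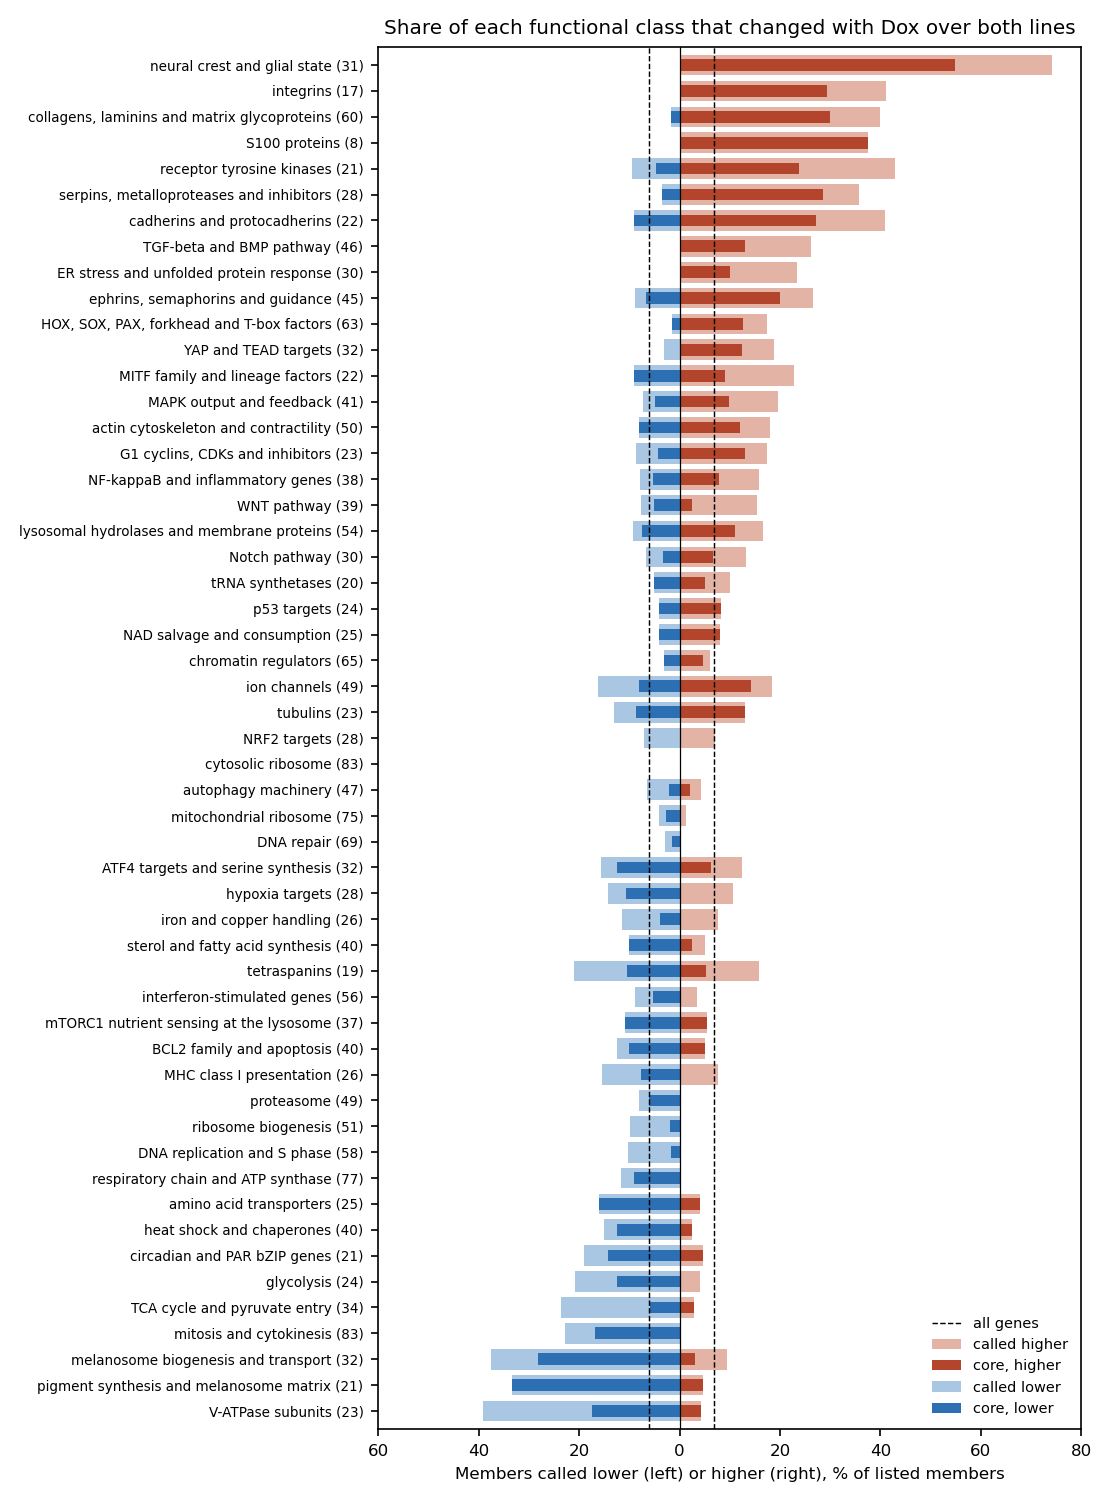
For each of 53 functional classes (number of listed members in parentheses) pale bars give the percentage of members called higher (right) or lower (left) with Dox over both lines, and dark bars the part in the core. Dashed lines mark the share over all 12616 genes, 6.80% higher and 6.15% lower, and the neural crest and glial list reaches farthest to the right with 23 of 31.

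Pigment and melanosome genes fell, but not as a block. Of 21 listed genes for pigment synthesis and the melanosome matrix 7 fell and 1 rose, all 8 of them in the core, and of 32 genes for melanosome biogenesis and transport 12 fell and 3 rose. Besides TRPM1 and TSPAN10, PMEL, which forms the fibrils on which melanin is laid down, fell from a mean of 7450 to 3260 with Dox in MeWo and, in SkMel28, from 6560 to 2570. SLC45A2, which keeps melanosomal pH permissive for pigment, fell from 577, 577 and 529 to 148, 211 and 145 and from 425, 402 and 445 to 128, 137 and 151, a change of -1.68 (SE 0.099). MLANA (-1.10) and TYRP1 (-0.97) fell in both lines with a larger fall in MeWo, where the interaction was called. TYR, the rate-limiting enzyme of melanin synthesis, was not called at -0.20 (adjusted p = 0.589), with means of 373 and 250 in MeWo and 438 and 526 in SkMel28. The rise was in CAPN3, a calpain protease also known from muscle, at 0.37 (SE 0.076).

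Transport of melanosomes was represented by RAB27A, the GTPase that tethers them to actin motors, which fell from 167, 161 and 172 to 71.2, 63.7 and 46.4 with Dox in MeWo and, in SkMel28, from 246, 219 and 251 to 68.0, 67.5 and 67.4. HPS4 and BLOC1S2, subunits of complexes that deliver cargo to melanosomes, fell by 1.02 and 1.06 on the log2 scale, and HPS5, of another such complex, rose by 0.60. CD63, a tetraspanin of melanosomes and late endosomes, fell by 0.52, a call that was lost under spike-in scaling.

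The V-ATPase, the proton pump of lysosomes and melanosomes, had 9 of 23 listed subunits lower and 1 higher, and 4 falls and the rise were in the core. Under spike-in scaling 3 falls were called. ATP6V0D2 led, and ATP6V1B2 fell by 0.64 (SE 0.13) and ATP6V1C1 by 0.56 (SE 0.1), the latter not called under spike-in scaling, whereas the accessory subunit ATP6AP2 rose by 0.46 (SE 0.1). Soluble and membrane proteins of the lysosome went both ways, with 9 of 54 higher and 5 lower. SCARB2, the receptor that carries glucocerebrosidase to the lysosome, rose from 125, 128 and 124 to 269, 228 and 215 with Dox in MeWo and, in SkMel28, from 220, 209 and 209 to 399, 392 and 415, the same change in each line (0.91 and 0.91). ASAH1, acid ceramidase, fell by 0.91 (SE 0.086). Of the 5 lysosomal falls 2 were called under spike-in scaling. In the autophagy list 2 of 47 rose and 3 fell, 10.6% called against 13.0% over all genes. The falls were 0 under spike-in scaling, and the rises ran from 1 to 3 as single libraries were left out, 1 without each of 8 libraries (all 3 SkMel28 Dox, MeWo control replicates 2 and 3, MeWo Dox replicate 3, SkMel28 control replicates 2 and 3).

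Nutrient sensing at the lysosome had 2 of 37 members higher and 4 lower, all 6 in the core. These are 16.2% of the list, near the 13.0% called over all genes, and the median change was -0.0008. RHEB, the GTPase that activates mTORC1, fell from 34.4 to 13.7 and from 17.6 to 9.22 on average, and TBC1D7, part of the complex that restrains RHEB, from 387 to 273 and from 328 to 194. FNIP2 was the other strong fall. The rises were SESN3 (1.06, SE 0.15) and DEPTOR (0.88, SE 0.17), both known as negative regulators of mTOR signalling.

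The neural crest and glial list showed the highest share of calls: 23 of 31 rose, 17 of them in the core, with a median change of 1.17. Some of its members had been put on the list with their changes known, and without SCRG1, MATN2, COL9A3 and NGFR the counts were 19 of 27, 14 in the core, with a median of 1.12. The remaining members were also chosen with earlier results of these data known. Both sets of counts are therefore a description and no independent check. S100B, a calcium-binding protein of glia and melanocytes, rose from 65.7, 63.7 and 59.3 to 251, 251 and 241 with Dox in MeWo and, in SkMel28, from 536, 481 and 513 to 1060, 1120 and 1190. The rise was steeper in MeWo (1.96 against 1.14), and the interaction was called. SOX2, a factor of neural progenitors, was low, with means of 2.12 and 16 in MeWo and 0.582 and 2.91 in SkMel28, where the controls were at the floor and Dox was at least 2.5-fold higher. ERBB3, the neuregulin receptor on which Schwann cells depend, rose from 107, 99.1 and 109 to 302, 357 and 360 and from 81.9, 94.2 and 88.9 to 138, 117 and 137.

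Matrix genes rose for 24 of 60 listed members and fell for 1, LUM. Of the rises 18 were in the core, COL9A3 and MATN2 among them. Lumican, the product of LUM, organises collagen fibrils and also marks fibroblasts, and its means were 44.4 and 12.6 in MeWo and 11.8 and 7.32 in SkMel28. Among serpins, metalloproteases and their inhibitors 10 of 28 rose and 1 fell. TIMP3, a matrix-bound inhibitor of metalloproteases, rose from 149, 151 and 167 to 486, 428 and 519 and from 430, 431 and 423 to 863, 861 and 864. The membrane-type protease MMP15 rose by 2.17 in MeWo and 2.09 in SkMel28. SERPINA3, an antichymotrypsin of the acute phase, was at the floor in MeWo control and at least 29.3-fold higher with Dox, with a much smaller rise in SkMel28, from a mean of 2.88 to 13.3. The fall was in SERPINF1, which encodes the anti-angiogenic factor PEDF, from 19.0, 25.6 and 23.6 to 1.92, 6.06 and 3.73 and from 27.0, 21.6 and 20.3 to 6.23, 7.69 and 10.6.

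Adhesion receptors went both ways. Of 17 integrins 7 rose. ITGA6, the laminin-binding alpha 6 chain, rose from 30.2, 32.2 and 32.4 to 66.4, 65.2 and 78.2 with Dox in MeWo and, in SkMel28, from 152, 194 and 169 to 480, 452 and 385, a change of 1.23 (SE 0.098). ITGB8 rose by 0.87 (SE 0.099), and ITGA4 by 2.38 (SE 0.39), mostly in MeWo (3.78 against 0.99, interaction called). Of 22 cadherins and related genes 9 rose and 2 fell, and the falls were the classical epithelial members. CDH3 (P-cadherin) fell from 17.9, 19.4 and 22.7 to 3.83, 12.5 and 2.71 with Dox in MeWo and, in SkMel28, from 99.1, 70.1 and 83.9 to 26.1, 31.4 and 32.0. CDH1 (E-cadherin) fell from a mean of 52.3 to 25.5 and from 4.46 to 1.32.

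CDH2 (N-cadherin), by contrast, rose from 30.2, 30.3 and 30.1 to 70.2, 111 and 157 and from 10.3, 16.2 and 12.6 to 54.6, 55.5 and 41.1. Its change was 1.84 (SE 0.17, adjusted p = 1.46e-06), and those of CDH3 and CDH1 were -1.60 (SE 0.24) and -1.14 (SE 0.19). The protocadherins PCDH1 and PCDH7 rose by 3.07 (SE 0.23) and 1.16 (SE 0.13).

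**Figure D4:**
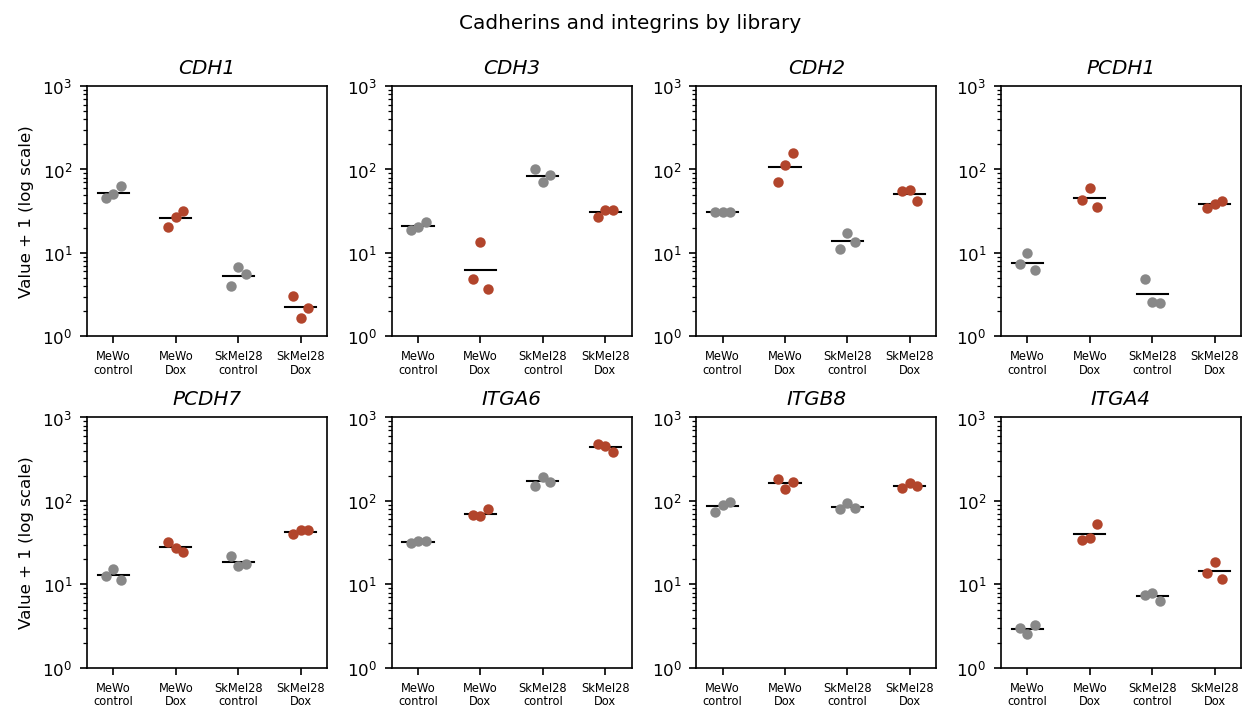
Points are the 3 libraries of each group for 3 cadherins, 2 protocadherins and 3 integrins, on a log axis of value + 1, with the geometric mean as a bar. In each line the Dox points (red) lie below the controls (grey) for CDH1 and CDH3 and above them for CDH2, PCDH1, PCDH7, ITGA6, ITGB8 and ITGA4.

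Signalling receptors and ligands followed with mixed directions. Among 21 receptor tyrosine kinases 9 rose and 2 fell, 1 of the latter under spike-in scaling. MET, the receptor for hepatocyte growth factor, fell from 255, 249 and 255 to 64.8, 95.9 and 73.2 with Dox in MeWo and, in SkMel28, from 76.0, 63.8 and 62.8 to 29.7, 29.4 and 36.0, a change of -1.39 (SE 0.13), while DDR1, a collagen receptor, rose by 0.74 (SE 0.16). Of 45 ephrins, semaphorins and other guidance genes 12 rose and 4 fell. SEMA3B, a secreted semaphorin, rose from a mean of 15.9 to 385 with Dox in MeWo and, in SkMel28, from 2.79 to 18.8, whereas SEMA6A fell by 0.68 (SE 0.099). In the TGF-beta and BMP list 12 of 46 rose, 6 of them in the core, with median changes of 0.0347 in MeWo and 0.405 in SkMel28. ID1, a BMP-responsive inhibitor of bHLH factors, rose from 5.18, 6.6 and 5.18 to 18.2, 25.8 and 25.7 and from 24.2, 30.5 and 30.3 to 85.5, 95.3 and 83.7, and its relative ID3 by 0.65 (SE 0.1). JUN, a subunit of AP-1, rose by 1.23 (SE 0.2), more in SkMel28 (1.87) than in MeWo (0.58).

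Genes of HOX, SOX, PAX, forkhead and T-box families had 11 of 63 rises and 1 fall, FOXP1. SOX4, a factor of neural and mesenchymal progenitors, rose from a mean of 174 to 398 and from 114 to 196. Of the lineage factors, ETV1 (0.68) and ZEB2 (0.58), a repressor of E-cadherin, rose, and ETV5 fell by 0.63 on the log2 scale. BHLHE41, a circadian repressor, fell by 1.12 (SE 0.094).

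In the cytoskeleton the members split within families. The actin-severing protein DSTN rose from 136, 152 and 146 to 373, 311 and 318 and from 243, 241 and 233 to 434, 410 and 450, and RHOB, a GTPase of stress fibres and endosomes, rose by 1.37 (SE 0.19). CAPG, which caps actin filaments, fell by 1.66 (SE 0.13), from 413, 392 and 385 to 90.7, 147 and 99.9 and from 7920, 6690 and 7450 to 2320, 2280 and 3460. TUBA1A, a neuronal alpha tubulin, rose by 1.08 (SE 0.12), but it overlaps TUBA1C, a near-identical tubulin on the other strand that fell by 0.46, and this fall was not called under spike-in scaling. Among S100 proteins 3 of 8 rose, S100B, S100A6 (1.03) and S100A10 (0.70).

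Genes of the dividing cell were lower, with the larger class medians in SkMel28. In the list for mitosis and cytokinesis 19 of 83 members fell, 14 in the core, with a median change of -0.34. The median was -0.212 in MeWo and -0.489 in SkMel28, a difference between the lines that was not tested for the class. The number called was 12 without SkMel28 control replicate 1 or SkMel28 Dox replicate 2, 32 without MeWo Dox replicate 2 and 4 under spike-in scaling, where the median was -0.26. Fewer cells in division and less of these RNAs per cell cannot be told apart in bulk RNA. AURKB, a kinase of chromosome segregation, fell from 170, 140 and 146 to 86.2, 80.0 and 59.6 with Dox in MeWo and, in SkMel28, from 173, 139 and 183 to 76.9, 75.9 and 107. AURKA, which builds the spindle poles, fell from 89.6, 81.2 and 75.5 to 54.9, 40.2 and 29.1 and from 165, 148 and 189 to 82.8, 99.6 and 91.6. Both genes kept their call in each of 23 alternatives, with changes of -0.97 (SE 0.12) and -0.94 (SE 0.13).

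Promoters of mitotic genes are known to carry a CHR element, often with a CCAAT box nearby. TTTGAA, one form of the CHR, was present on either strand in the windows of 8 of 12 mitotic core falls with a promoter, and CCAAT in 10 of 12, against 13.6% and 43.9% of all genes. Matches to these motifs can share at most an end letter. Over the whole core TTTGAA was present in 15.8% of rises and 17.8% of falls, and CCAAT in 48.3% and 47.8%. Among the 100 core rises and 100 core falls with the largest t, TTTGAA was more frequent in the rises. Mitotic members outside the core falls were not compared. The shares in mitotic core falls therefore cannot tell a trait of mitotic genes from a link with the fall. The stretches of 3 members in which TTTGAA or its reverse complement lies before the start are shown, with 40 bases on either side of the match and the match in capitals.
KIF4A, chrX:70290030-70290115, plus strand: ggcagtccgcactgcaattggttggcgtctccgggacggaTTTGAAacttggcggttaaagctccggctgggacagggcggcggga
ASPM, chr1:197146737-197146822, minus strand: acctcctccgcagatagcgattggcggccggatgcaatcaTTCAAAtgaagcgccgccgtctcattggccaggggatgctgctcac
KIF11, chr10:92593062-92593147, plus strand: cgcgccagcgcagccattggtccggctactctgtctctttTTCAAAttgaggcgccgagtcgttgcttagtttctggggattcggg
KIF4A and KIF11 are kinesins of the spindle and ASPM a spindle pole protein, with changes of -0.56 (SE 0.14) for KIF4A, -0.76 (SE 0.22) for KIF11 and -0.54 (SE 0.13) for ASPM. All 3 were called lower here and none under spike-in scaling, with adjusted p of 0.103, 0.0568 and 0.123, and KIF11 also lost its call without any 1 of the 3 MeWo control libraries, MeWo Dox replicate 1 or 3, SkMel28 control replicate 2 or SkMel28 Dox replicate 3. The matches began 34, 113 and 28 bases before the start.

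DNA replication genes had 6 of 58 members lower, 1 of them in the core. The number called lower ran from 1 to 12 as single libraries were left out and was 0 under spike-in scaling. Their median change was -0.039 in MeWo and -0.395 in SkMel28. DNA repair had 2 of 69 lower (2.9%, less than the 6.15% over all genes), and 4 without MeWo Dox replicate 1. Its median change was nevertheless -0.193 (-0.113 under spike-in scaling). By limma 14 members were lower and 2 higher at an unadjusted p under 0.05. Of the G1 regulators, the inhibitors CDKN1C (0.94, SE 0.12) and CDKN1B (0.49, SE 0.1) rose, CDKN1C from 32.0, 29.5 and 35.6 to 75.0, 70.5 and 62.7 and from 7.8, 9.2 and 9.2 to 14.0, 17.4 and 16.6. CCND1 moved apart in the lines, by 0.98 in MeWo and -0.56 in SkMel28.

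**Figure D5:**
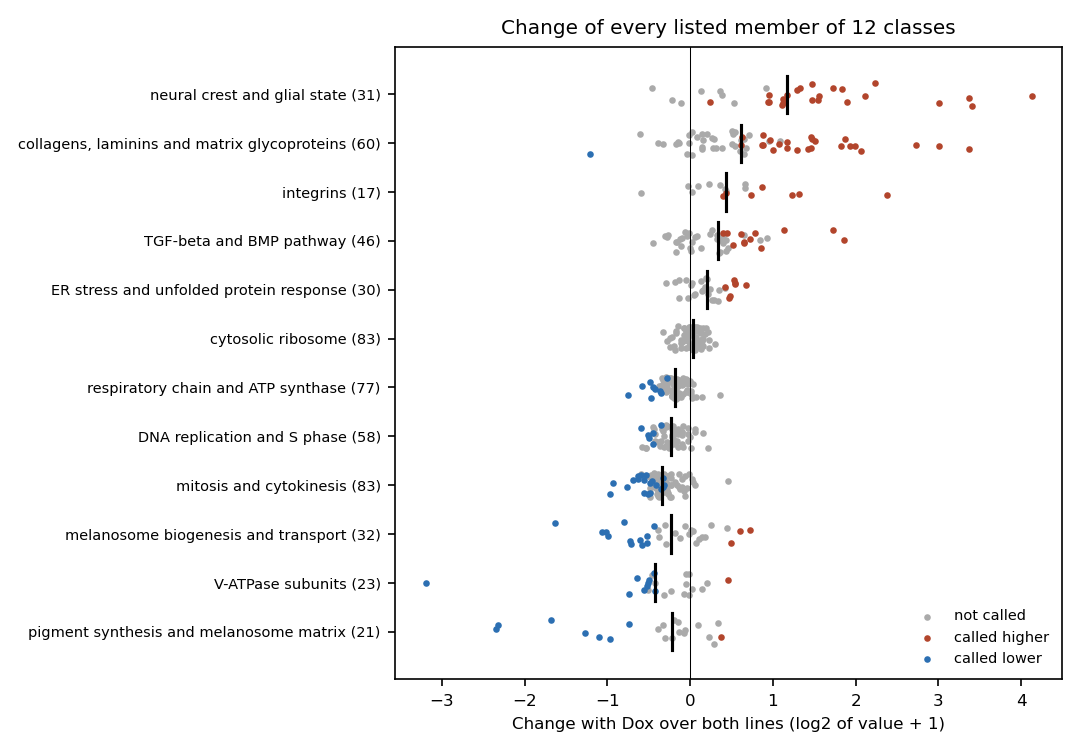
Each point is a listed member of 1 of 12 classes (number in parentheses), placed by its average change with Dox over both lines in log2(value + 1), with the class median as a bar and called genes in colour. The neural crest and glial list has its median at 1.17, the cytosolic ribosome at 0.03 with 0 of 83 called, and mitosis at -0.34.

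Energy metabolism showed small falls. Of 77 nuclear genes for the respiratory chain and ATP synthase 9 fell, with a median of -0.18, and of 34 for the TCA cycle and pyruvate entry 8 fell and 1 rose. In glycolysis 5 of 24 fell and 1 rose. Under spike-in scaling 2, 2 and 1 of these falls were called, and the respiratory count ran from 5 to 15 as single libraries were left out, with 15 without MeWo Dox replicate 2 and 5 without each of 6 others (MeWo control replicates 1 and 2, SkMel28 control replicates 1 and 3, SkMel28 Dox replicates 1 and 2). UQCRFS1, the iron-sulphur subunit of complex III, was among the clearer falls, from 124, 127 and 124 to 76.3, 69.0 and 69.1 and from 187, 167 and 185 to 121, 101 and 108. PFKP, a phosphofructokinase of glycolysis, fell from a mean of 207 to 126 and from 78.1 to 41.6, and the pyruvate dehydrogenase phosphatase PDP1 rose by 0.71 (SE 0.13).

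In lipid synthesis SCD, the stearoyl-CoA desaturase, fell from a mean of 399 to 199 and from 1180 to 798, a change of -0.78 (SE 0.096). Of the NAD genes NAMPT, the rate-limiting enzyme of NAD salvage, rose by 0.79 (SE 0.14). Amino acid transporters had 4 of 25 members lower and 1 higher, with the rise lost without SkMel28 Dox replicate 2 or 3. SLC7A1, a carrier of cationic amino acids, fell from 249, 263 and 244 to 129, 107 and 106 and from 82.7, 72.7 and 82.4 to 40.1, 42.1 and 51.7, and SLC7A5, a carrier of leucine and other large amino acids, fell by 0.60 (SE 0.089). ASNS, the asparagine synthetase known as an ATF4 target, rose by 0.64 (SE 0.12), and PHGDH of serine synthesis fell by 0.62 (SE 0.13).

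Few genes of the translation machinery were called. Of 83 cytosolic ribosomal protein genes 0 were called by limma, edgeR or DESeq2, and by limma 1 was higher and 1 lower at an unadjusted p under 0.05. Their median change was 0.03, or -0.0076 without MeWo Dox replicate 2, and the range -0.32 to 0.30. In the mitochondrial ribosome the median change was -0.151 (-0.065 under spike-in scaling). By limma 20 of 75 members were lower and 1 higher at an unadjusted p under 0.05. After adjustment 3 fell and 1 rose. The falls were 0 under spike-in scaling and without MeWo control replicate 2, 1 without MeWo control replicate 1 or SkMel28 Dox replicate 1, and 5 without MeWo Dox replicate 2, and the rise was lost without MeWo control replicate 2, SkMel28 control replicate 3 or SkMel28 Dox replicate 3. In the list for endoplasmic reticulum stress 7 of 30 rose, with HSPA5 (BiP) going from 669, 665 and 700 to 1090, 1210 and 1220 with Dox in MeWo and, in SkMel28, from 1190, 1150 and 1210 to 1400, 1430 and 1520, and 5 rises were called under spike-in scaling. Among heat shock proteins and cytosolic chaperones 6 of 40 fell and 1 rose, against 1 fall and 2 rises under spike-in scaling. The difference between the lists was not tested.

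Survival and immune genes changed one by one. BCL2L1, which encodes the survival protein BCL-XL, fell from a mean of 15.3 to 8.59 and from 18.5 to 9.65, and BIRC7, the melanoma inhibitor of apoptosis, fell by 1.13 (SE 0.2), with -0.45 in MeWo and -1.80 in SkMel28. BBC3, the pro-apoptotic PUMA, fell by 0.67 (SE 0.1), and BMF, another pro-apoptotic member of the family, rose by 0.99 (SE 0.2). TNFRSF21, a death receptor, rose by 1.51 (SE 0.16) and TNFAIP3, a brake on NF-kappaB, fell by 1.54 (SE 0.22). Of 56 listed genes of the interferon response 5 fell and 2 rose, with 8 falls without SkMel28 control replicate 2. HLA-C fell from a mean of 24.9 to 13.4 and from 369 to 79.7, values that remain uncertain because related class I genes share sequence.

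An average can hide opposite changes. In 281 genes (2.23%) Dox and control libraries did not overlap in either line but lay in opposite directions, and in 1150 (9.12%) in the same direction. These counts rest on overlap alone, without a test. TFAP2A, a transcription factor of the neural crest, fell from 673, 664 and 710 to 485, 332 and 381 in MeWo and rose from 141, 155 and 150 to 311, 296 and 299 in SkMel28, with an average of 0.12 (adjusted p = 0.822) and a difference between the lines of -1.81. The lysosomal channel gene TPCN2 behaved likewise, from a mean of 720 to 402 and from 15.6 to 29.5, and the sialyltransferase ST3GAL1 rose from 33.5 to 108 in MeWo and fell from 153 to 78.6 in SkMel28. Of 894 genes with a called interaction, 649 were not called on average, 245 were, and 102 of the latter were in the core. Without MeWo Dox replicate 1 the interaction was called for 3115 genes.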

How the data were processed

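RNA was sequenced from 12 libraries with QuantSeq Forward, a 3′ end protocol. The deposited values are a signal per gene, CPM with between-library normalization, made by the authors with edgeR; the submitters' processing notes also name FastQC 0.11.7, cutadapt 2.8, STAR 2.5.1b and build hg38, with the counting tool, annotation and strand not given in the sources used here. Values fell on whole reads in every library (tolerance 0.01), and these recovered reads served edgeR 4.0.16 and DESeq2 1.42.0 as alternatives. The main fit was limma 3.58.1 (R 4.3.3) on log2(value + 1) with line and Dox as terms, a mean-variance trend and Benjamini-Hochberg adjustment over 12616 genes, called at 0.05. All adjusted p are limma's. The interaction came from a fit of the 4 group means. Floors cover counting error only.

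Members, lists and 53 classes were chosen with earlier results of these data known. Genes were named by rule: the largest changes and largest moderated t in the core with a mean of at least 10, up to 3 core rises and falls per class by t, and the strongest opposite changes. MME, CEACAM1, B4GALT5, GPR143, KIF4A, KIF11, ASPM, MLANA, TYRP1, TYR and CD68, and the genes of the closing observations, were chosen after their values were seen. Loci are from GENCODE 44, matched for 97.1% of genes, and promoters from RefSeq. Some genes the rule names are not reported here.

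The fit was tested on simulated data with log2 changes of the same size in both lines. It called 33 of 100 changes of 0.5 and 86 of 100 changes of 1, with 2 false calls among 121. A gene that was not called may therefore still have changed by a small amount. Alternatives were other tools, scalings, pseudocounts, filters, variance models, a replicate block and leaving out each library.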

Additional observations from a re-analysis of the deposited data

Results flagged for a closer look

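Of the 120 genes named with values, 24 had a change with Dox that differed between the lines by the interaction test (limma, Benjamini-Hochberg adjusted). Values are the change in MeWo minus that in SkMel28, on the log2(value + 1) scale.

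In 4 genes the lines had opposite signs, with differences of -1.81 for TFAP2A (adjusted p = 1.09e-05), -1.72 for TPCN2, 2.62 for ST3GAL1 (adjusted p = 3.88e-06) and 1.54 for CCND1. Among rises that were larger in MeWo, the difference was 3.06 for SERPINA3, 3.08 for the potassium channel gene KCNN4, 2.79 for ITGA4, 1.98 for SEMA3B, 1.13 for ERBB3, 0.825 for S100B, 0.601 for TIMP3 and 0.498 for HSPA5. The rises of JUN and S100A10 were larger in SkMel28, by -1.29 and -0.677.

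Falls were deeper in MeWo for PNLIPRP3 (-1.68), PRDM7 (-1.34), LUM (-1.15), MLANA (-1.1), LINC00520 (-1), TYRP1 (-0.901) and ATP6V1B2 (-0.859). They were deeper in SkMel28 for CD68 (1.52), BIRC7 (1.35) and HLA-C (1.3). MeWo Dox replicate 1, which stood apart, enters each difference.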

How the results depend on the processing

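No named gene that was called reversed its direction in the alternatives run, but 13 of 53 class medians, all within 0.0785 of 0, changed sign in at least 1, and with quantile normalization 830 genes were called higher and 837 lower. As single libraries were left out, the average effect called 1240 to 1696 genes (649 to 874 higher, 575 to 822 lower), 356 to 417 of them past 2-fold, and the core held 477 to 596 rises and 447 to 593 falls. In all 24 settings 523 genes were in the core, 316 rises and 207 falls. Under spike-in scaling 390 genes were called lower, 235 core falls were left and 1522 interactions were called. The 2-fold count, 392 here, was 614 with edgeR and 171 with a pseudocount of 5. The interaction count, 894 here, was 554 without the variance trend and 449 to 3115 as libraries were left out, with 3115 without MeWo Dox replicate 1. Defined by a call in each line, the core held 241 rises and 226 falls, and with at least 2-fold in each line 96 and 58. Of 242 genes named by rule, 31 lost their call under spike-in scaling. The cause of these shifts was not tested. Deviations of same-numbered libraries correlated at -0.181 to 0.159, which gave no sign of pairing by replicate number. With 3 libraries per group such correlations cannot exclude pairing. With a replicate block 1036 genes were called (554 higher, 482 lower), 803 in the core, and 20 named genes lost their call. Depth limits low genes, for which 3 reads amount to a value of up to 1.17.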

Other observations

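Ion channels and Notch genes also held members that changed in both lines. Of 49 listed ion channels 9 rose and 8 fell. TRPV4, a calcium channel opened by osmotic and mechanical stimuli, rose by 1.40 (SE 0.16, limma adjusted p = 1.82e-05), with means of 21.7 and 67.7 in MeWo and 16.5 and 39 in SkMel28. KCNN4, a calcium-activated potassium channel, was at the floor in MeWo control and at least 25.9-fold higher with Dox, and had means of 4.36 and 13.6 in SkMel28. CLCN7, the chloride-proton exchanger of lysosomes, fell by 0.86 (SE 0.14) on the log2 scale, from a mean of 159 to 88.4 in one line (MeWo) and from 179 to 101 in the other, and ANO10, an anoctamin, by 1.06 (SE 0.14).

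Of 30 Notch pathway genes 4 rose and 2 fell, with 2 rises without any 1 of 7 libraries (all 3 MeWo control, MeWo Dox replicate 3, SkMel28 control replicate 1, SkMel28 Dox replicates 1 and 3) and 1 fall without MeWo control replicate 1 or 3 or MeWo Dox replicate 1. The receptor NOTCH1 rose by 0.78 (SE 0.17) and RBPJ, the DNA-binding partner of activated Notch, by 0.46 (SE 0.094), while HES6, which counteracts HES1, fell by 0.90 (SE 0.12).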
